A study of Mus musculus with 4 samples.

Results

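Usp9x and the mRNAs of 9 proteins reported as substrates of its enzyme were followed in ID8 cells in which Usp9x was knocked down. The genes were chosen by name, from what is known of the protein, although earlier results of these data were known at that point. They were Usp9x, Itch, Fbxw7, Xiap, Map3k5, Mark4, Nuak1, Ctnnb1, Epn1 and Pcm1. These are 10 of the 22063 genes listed in the deposited table, and all 10 were abundant enough to be tested, as 11448 genes were. ID8 cells are a mouse line of ovarian cancer that was derived from ovarian surface epithelium. Polyadenylated RNA was sequenced from cells with a control shRNA (shCtrl, genotype label WT) and from cells with an shRNA against USP9X (shUSP9X, genotype label USP9X knockdown), with 2 libraries in each group. An shRNA is a short hairpin that a cell turns into a guide against mRNAs of matching sequence, and the hairpins were carried by a lentiviral puromycin-selected vector in both groups. The sources used here do not state whether the 2 libraries of a group came from separate cultures, so that the p-values below measure only the spread between these samples, nor do they state the oxygen level or whether TGF-β was added. The library totals of estimated counts were 17232006 and 15611363 for shCtrl, against 19978889 and 17021261 for shUSP9X.

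USP9X is a deubiquitinase, an enzyme that cuts ubiquitin off other proteins. Proteins that carry chains of ubiquitin are often sent to the proteasome, and removal of the chains can spare them. A substrate of USP9X is thus defined by an effect on its protein, and the mRNA levels given here do not measure the amount of that protein.

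The study lists a pair of hairpins against mouse Usp9x, and which of them the sequenced cells carried is not stated in the sources used here. The descriptions of the samples name the shUSP9X libraries shUSP9X-21 and shUSP9X-22 without saying what these numbers stand for. Their 21-base target sequences are shown because they are the part of Usp9x that the knockdown addressed.
shUSP9X#2: gataattgcagcccttattaa
shUSP9X#3: tcgtaatgtatgccaatttag
Both lie in the coding sequence of Usp9x on the + strand of GRCm38, the former in exon 7 of 45 at chrX:13107160-13107180 and the latter in exon 38 at chrX:13159883-13159903. Among the longest coding transcripts (GENCODE M21) of the 11431 genes searched, Usp9x alone held an exact match to either. Usp9y, the copy of the gene on the Y chromosome, came closest to the first target, with 3 mismatches, and had 4 for the second, as did 2 of the genes tested. The sites of Usp9y and the closest sites of Pcm1, the substrate mRNA with the lowest fold change below, are shown for comparison, with capitals at each base that differs from the target.
Usp9y, target #2: AaCaattgcagcTcttattaa
Usp9y, target #3: tTAtaatgtatgccaGCttag
Pcm1, target #2: ATtaCttgGagAActtCAtaa
Pcm1, target #3: ATgAaaGAtCtgccaatGtTg
The Pcm1 sites had 8 mismatches each, and 62.8% and 54.0% of the genes tested had a site with as few for the first and the second target. In the other substrate mRNAs the closest sites had between 6 and 9 mismatches. The site with 6 was in Itch for the second target, and 2.45% of the genes tested had as few. A count of mismatches describes the letters only and was not read as binding.

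Usp9x was read first, since it checks the labels. The gene spans chrX:13071498-13173328 (GRCm38, GENCODE M21, as for the coordinates below). Its counts were 5169 and 4453 in shCtrl and 390 and 346 in shUSP9X. As CPM, the count scaled to library size with edgeR's TMM normalization, its level was 298 and 282 in shCtrl and 19.7 and 20.5 in shUSP9X. Both shUSP9X libraries lay far below both shCtrl libraries. The mean CPM was 290 ± 11.6 (SD, n = 2) in shCtrl and 20.1 ± 0.57 (SD, n = 2) in shUSP9X, a 14.4-fold lower level that left 6.95% of the shCtrl level. The log2 fold change was -3.85 (SE 0.06; 95% confidence interval -3.97 to -3.73; adjusted p = 4.66e-26, edgeR's quasi-likelihood test, adjusted by Benjamini-Hochberg over all genes tested), which ranked 38 from the lowest among the genes tested. With the offsets described below it was -2.32 (GC content and length) and -2.69 (coding adenine and length). In bulk RNA, fewer cells that express a gene and less RNA per cell cannot be told apart.

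Of the 9 substrate mRNAs, 4 were lower in shUSP9X (Pcm1, Xiap, Fbxw7 and Itch), 1 was higher (Nuak1) and 4 were not called (Map3k5, Mark4, Ctnnb1 and Epn1) at an adjusted p under 0.05. With Usp9x, 5 of the 10 genes were thus lower and 1 was higher, where 33.6% of all genes tested were lower and 33.8% higher (67.3% in either direction). With the GC content and length offset described below, 3 of the 10 were lower and 3 higher, since Itch and Xiap were then called in the opposite direction. The median log2 fold change of the 9 substrate mRNAs was 0.020, and that of all genes tested was -5e-04. The study's own cutoff asks for a change of over 1.5-fold and takes p under 0.05 without adjustment. It was set here on the values of edgeR, where the study used DESeq2. Then 4 of the 10 genes were lower and 1 was higher, against 18.7% and 10.8% of all genes tested. Under the GC content and length offset 2 were lower at this cutoff, and the share of all genes was not counted there. The CPM of the groups did not overlap for 5 genes that were lower and 3 that were higher in shUSP9X, against 41% and 41.2% of all genes tested. The levels in each library are plotted by gene.

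**Figure D1:**
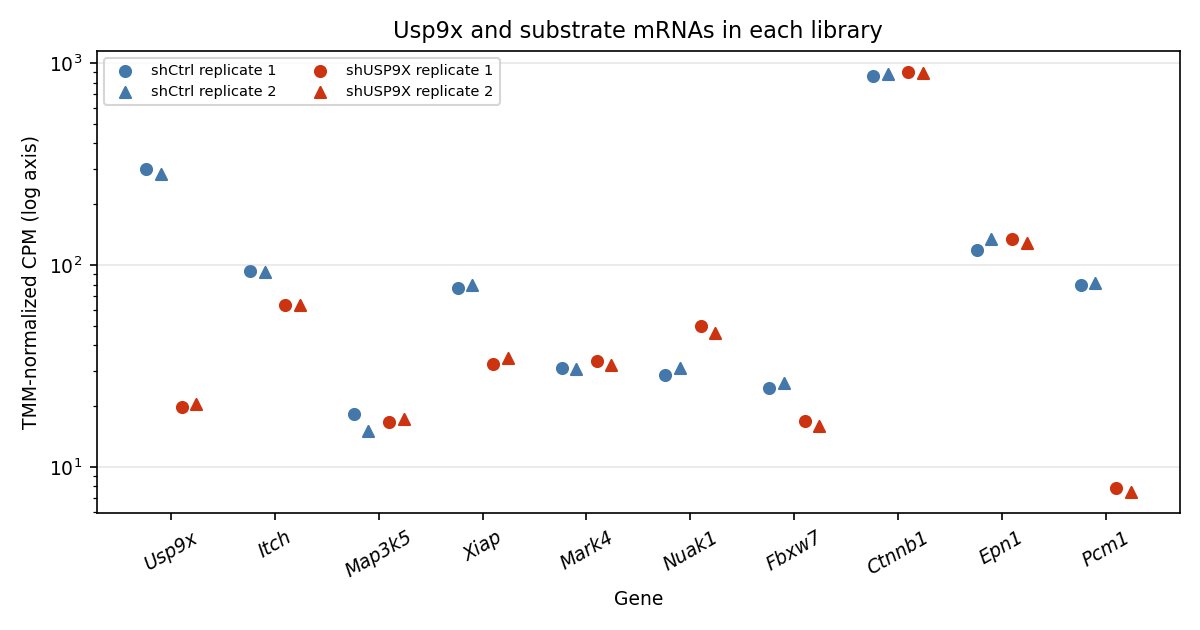
TMM-normalized CPM (log axis) of Usp9x and the 9 substrate mRNAs, with 1 point per library, shCtrl in blue and shUSP9X in red. Usp9x (298 and 282 against 19.7 and 20.5) and Pcm1 (79.9 and 81.3 against 7.84 and 7.48) show the widest gaps between the groups, and the groups overlap for Map3k5 and Epn1.

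Among the substrates are parts of ubiquitin ligases, which attach the chains that USP9X removes. Itch, a HECT-type ligase of the NEDD4 family (chr2:155133509-155226855), was at 92.9 and 92.0 CPM in shCtrl and at 63.3 and 63.4 CPM in shUSP9X. The groups did not overlap, and the libraries of a group lay close together. The log2 fold change of Itch was -0.55 (SE 0.06; adjusted p = 2.58e-09, edgeR), so that 68.5% of its shCtrl level was left. With an offset for GC content and length, described below, it was 0.19, on the other side of 0. Fbxw7, the F-box protein that picks substrates for an SCF ligase and is known to direct cyclin E and MYC to degradation (chr3:84815268-84979198), was at 24.5 and 26.0 CPM in shCtrl and at 16.9 and 16.0 CPM in shUSP9X. The groups of Fbxw7 did not overlap, and its log2 fold change was -0.61 (SE 0.10; adjusted p = 1.1e-05, edgeR), or -0.24 (adjusted p = 0.043) with the coding adenine offset.

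A pair of substrates act in cell death and stress signaling. Xiap, an inhibitor of apoptosis that binds and blocks caspases (chrX:42059679-42109656), was at 77.0 and 79.5 CPM in shCtrl and at 32.4 and 34.6 CPM in shUSP9X. Its groups were well apart, with a log2 fold change of -1.23 (SE 0.07; adjusted p = 9.68e-15, edgeR), or 2.34-fold lower, which the same GC content and length offset turned to 0.38. Map3k5, which encodes the stress-activated kinase ASK1 (chr10:19934472-20142753), was at 18.3 and 15.1 CPM in shCtrl and at 16.7 and 17.2 CPM in shUSP9X. Both shUSP9X values lay between the shCtrl values. The log2 fold change of Map3k5 was 0.020 (95% confidence interval -0.22 to 0.26; adjusted p = 0.891, edgeR), an interval that leaves room for a modest change either way.

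Mark4 and Nuak1 are kinases related to AMPK, both switched on by the kinase LKB1. Nuak1 (chr10:84370905-84440597) was at 28.4 and 30.7 CPM in shCtrl and at 49.6 and 46.2 CPM in shUSP9X. It was the substrate mRNA that rose, with no overlap of the groups and a log2 fold change of 0.70 (SE 0.08; adjusted p = 2.09e-08, edgeR), or 1.62-fold. Mark4, a kinase of microtubule-associated proteins (chr7:19424775-19458821), was at 31.0 and 30.5 CPM in shCtrl and at 33.6 and 32.1 CPM in shUSP9X. Its groups did not overlap, yet the difference did not pass the test, with a log2 fold change of 0.096 (95% confidence interval -0.08 to 0.27; adjusted p = 0.327, edgeR).

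The remaining substrates serve adhesion, endocytosis and the centrosome. Ctnnb1, which encodes β-catenin, the adhesion protein and coactivator of WNT signaling (chr9:120929216-120960507), was at 861 and 884 CPM in shCtrl and at 906 and 895 CPM in shUSP9X. The groups did not overlap, but the gap was small, with a log2 fold change of 0.046 (95% confidence interval -0.02 to 0.11; adjusted p = 0.209, edgeR). Epn1, the clathrin adaptor epsin (chr7:5080235-5098178), was at 119 and 135 CPM in shCtrl and at 135 and 128 CPM in shUSP9X. Its groups overlapped, and its log2 fold change was 0.056 (95% confidence interval -0.05 to 0.17; adjusted p = 0.365, edgeR). Without the second shCtrl library, Ctnnb1 (adjusted p = 0.0148) and Epn1 (adjusted p = 0.0117) were called higher by edgeR, and Ctnnb1 also with all 4 libraries under upper-quartile scaling (log2 fold change 0.079; adjusted p = 0.0407). In the fit without that library the lone shCtrl library is assumed to vary like the shUSP9X libraries. Pcm1, the scaffold of the centriolar satellites that gather around the centrosome (chr8:41239752-41332344), was at 79.9 and 81.3 CPM in shCtrl and at 7.84 and 7.48 CPM in shUSP9X. It was 10.5-fold lower, at 9.50% of its shCtrl level, the lowest of the substrates, but with the coding adenine offset described below it was at -0.84 on the log2 scale, beside -0.81 for Xiap. The log2 fold change of Pcm1 was -3.39 (SE 0.09; adjusted p = 1.37e-21, edgeR), which ranked 78 from the lowest among the genes tested. The 4 mRNAs that were not called had log2 fold changes of at most 0.096 in size.

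Levels can be compared between genes only per length, for which the deposited FPKM values were used. In shCtrl cells Ctnnb1 was by far the most abundant of the 10, at 247 ± 6.40 FPKM, followed by Epn1 at 60.8 ± 3.16 and Usp9x at 43.1 ± 3.95 FPKM (SD, n = 2 for each). Itch, at 18.0 ± 0.00778 FPKM, Pcm1, at 13.8 ± 0.0509 FPKM, Xiap, at 12.2 ± 0.392 FPKM, and Mark4, at 8.47 ± 0.123 FPKM, came next in that order. Fbxw7, at 5.96 ± 0.173 FPKM, and Nuak1, at 5.68 ± 0.749 FPKM, did not differ beyond their spread, and Map3k5 was the least abundant at 3.25 ± 0.407 FPKM. The order was different in shUSP9X cells. There Ctnnb1 (249 ± 1.45 FPKM) and Epn1 (60.0 ± 2.01 FPKM) still led, followed by Itch at 12.1 ± 0.0205 FPKM. Mark4, at 8.85 ± 0.231 FPKM, and Nuak1, at 8.52 ± 0.425 FPKM, did not differ beyond their spread. Below them came Xiap (5.13 ± 0.214 FPKM), Fbxw7 (3.80 ± 0.0742 FPKM) and Map3k5 (3.14 ± 0.131 FPKM). Usp9x, at 2.78 ± 0.00919 FPKM, and Pcm1, at 1.42 ± 0.00212 FPKM, had moved to the end of the order.

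**Figure D2:**
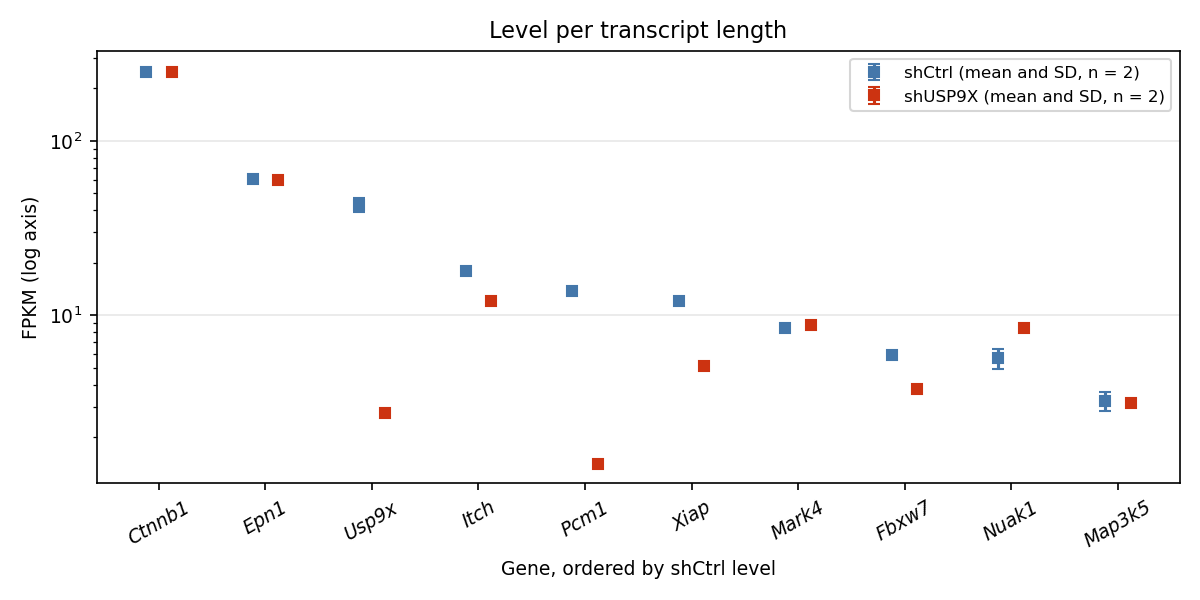
Deposited FPKM (log axis) of each gene, ordered by its shCtrl level, with shCtrl in blue and shUSP9X in red as the mean and SD of 2 libraries. Ctnnb1 leads in both groups at 247 and 249 FPKM, and Usp9x falls from 43.1 to 2.78 FPKM, below Map3k5.

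The mRNAs that were lower had features of sequence in common. The rule that chose the genes names none of these features, although the genes were proposed with earlier results of these data known. Usp9x, Itch, Xiap, Fbxw7 and Pcm1 all lay in the top quintile of the genes by adenine in the coding sequence, at least 29.6%, and the other 5 genes did not. Adenine made up 35.2% of the coding sequence of Pcm1, 31.4% in Xiap, 31.2% in Itch, 30.3% in Usp9x and 29.9% in Fbxw7. It ranged from 19.6% (Epn1) to 26.7% (Map3k5) in the others. Usp9x, with a coding sequence of 7662 nt, Pcm1, with 6075 nt, and Itch, with 2592 nt, were also in the quintile with the longest coding sequences, as was Map3k5, with 4140 nt, which was not called. Usp9x, Itch, Xiap and Pcm1 were in the quintile with the lowest GC content of the transcript, at 40.0%, 42.1%, 36.8% and 41.3%, and Mark4 (60.6%) and Epn1 (62.5%) were in the highest.

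The same features went with the fold changes of all genes. The 2283 genes in the top quintile of coding adenine had a median log2 fold change of -0.54, and 67.6% of them were lower. Where the top quintile of coding length was added, as for Usp9x, Itch and Pcm1, the median of 502 genes was -1.24, and 90.6% were lower. The log2 fold changes of Usp9x and Pcm1 lay below that median, and that of Itch lay above it. In the bottom quintile of coding adenine, which holds Epn1, the median of 2284 genes was 0.13 with 38.8% higher. In the lowest quintile of GC content the median of 2286 genes was -0.62 with 73.8% lower. Across genes, which share their libraries and are not independent replicates, Spearman's rho of the log2 fold change was 0.447 with GC content (n = 11430) and -0.349 with coding adenine (n = 11416). Between the 2 shCtrl libraries, second minus first, rho with GC content was 0.257, and between the shUSP9X libraries it was -0.034. With coding adenine, rho was -0.244 between the shCtrl libraries and 0.03 between the shUSP9X libraries. The part of this trend in the values of the 10 genes was not tested other than with the offsets that follow.

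**Figure D3:**
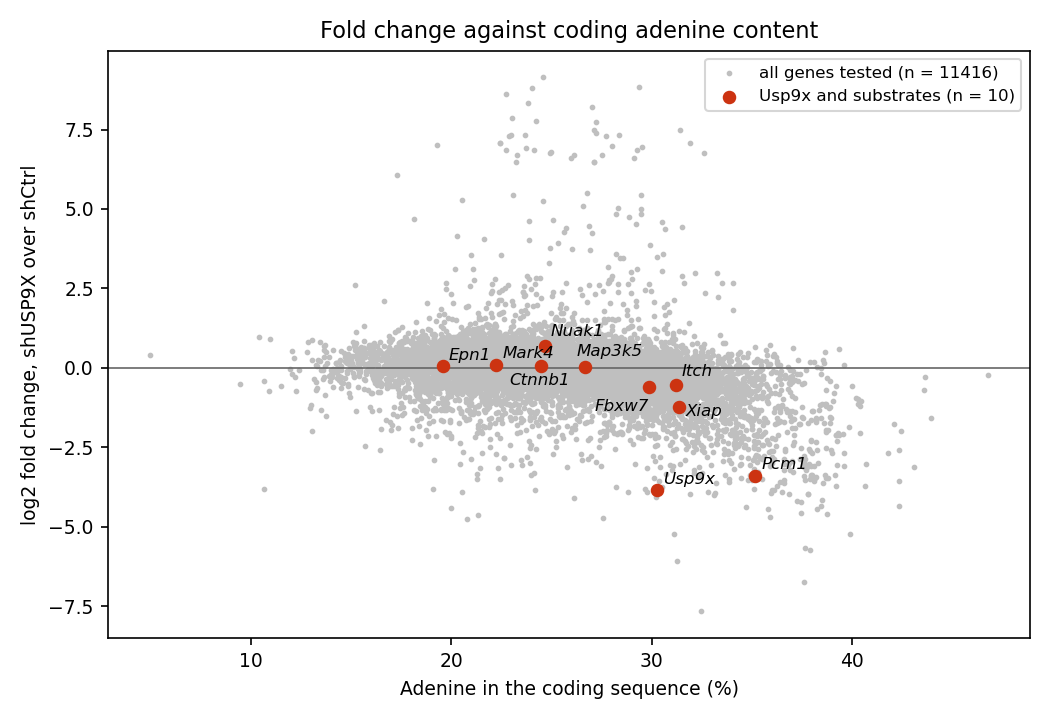
Log2 fold change of shUSP9X over shCtrl against the percentage of adenine in the coding sequence for 11416 genes tested (grey), with Usp9x and the substrate mRNAs in red. The 5 mRNAs that were lower lie at 29.9% adenine or more, and Pcm1 lies farthest right at 35.2%.

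Fold changes were therefore also given with offsets that remove, within each library, the trend of counts on these features. Such an offset also takes out whatever part of a group difference goes with the feature. With the offset for transcript GC content and length, Usp9x had a log2 fold change of -2.32 (adjusted p = 2.05e-21), Pcm1 of -2.40 (adjusted p = 1.52e-17) and Fbxw7 of -0.45 (adjusted p = 0.000473, all from edgeR). Xiap turned to 0.38 (adjusted p = 1.89e-05) and Itch to 0.19 (adjusted p = 0.00298), while Nuak1 stayed at 0.67 (adjusted p = 4.01e-08, all from edgeR). The call was then lower for 3 genes and higher for 3, against 27.5% and 35.8% of all genes tested. With an offset for coding adenine and coding length, chosen after values of these data had been seen, the log2 fold change was -2.69 for Usp9x (adjusted p = 4.43e-19), -0.84 for Pcm1 (adjusted p = 1.09e-07) and -0.81 for Xiap (adjusted p = 1.13e-09, all from edgeR). Fbxw7 was then at -0.24 (adjusted p = 0.043), Itch at 0.18 (adjusted p = 0.00656) and Nuak1 at 0.59 (adjusted p = 1.13e-06, all from edgeR), with 4 genes lower and 2 higher against 29% and 34.5% of all genes tested. Usp9x, Pcm1 and Fbxw7 were thus lower in all 3 of these fits and Nuak1 higher in all 3, whereas the direction of Itch and Xiap differed between them.

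**Figure D4:**
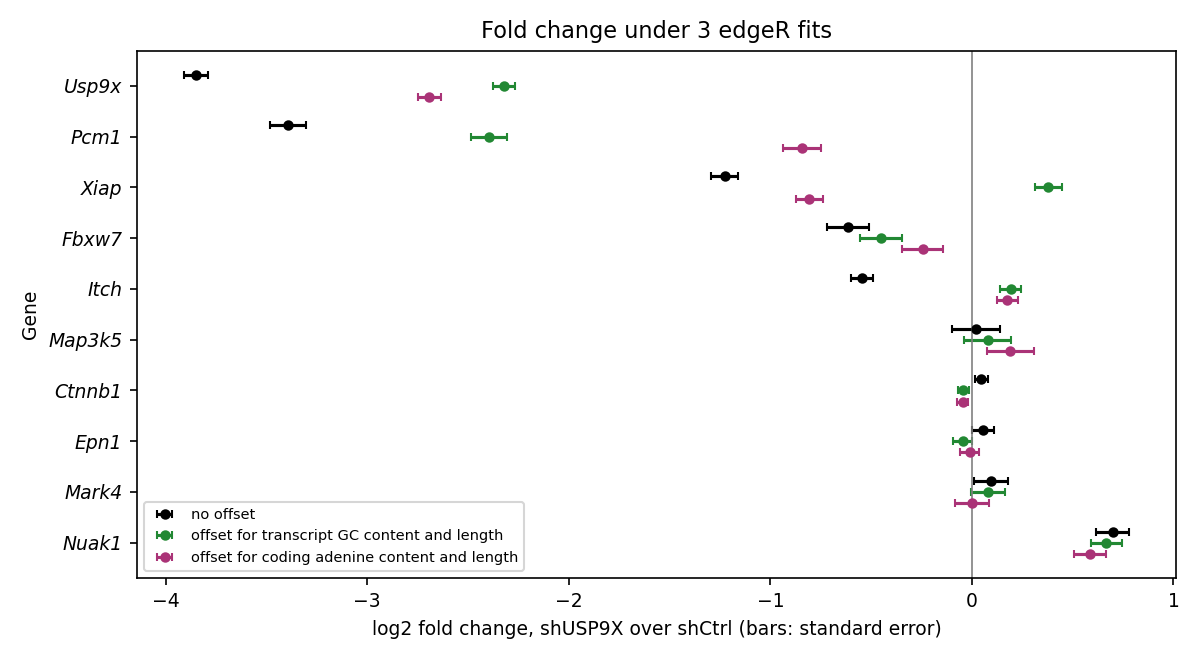
Log2 fold change of shUSP9X over shCtrl with its standard error for each gene, without an offset (black), with the GC content and length offset (green) and with the coding adenine and length offset (purple). Usp9x stays lowest or next to lowest at -3.85, -2.32 and -2.69, Pcm1 moves from -3.39 to -2.40 and -0.84, and Itch and Xiap cross 0.

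By the Euclidean distance between log2 CPM values centred on each gene's mean over the 4 libraries, the genes most like Usp9x among those tested were Knl1 (distance 0.0376), Atrx (0.107), Kif20b (0.126), Zfp292 (0.138) and Phip (0.170). Their log2 fold changes were -3.90, -3.95, -3.96, -4.01 and -3.97 in the same order. All 5 had coding sequences of at least 5322 nt with 31.9% adenine or more. With the coding adenine and length offset their log2 fold changes were -0.80, -0.90, -0.94, -1.92 and -2.60, beside -2.69 for Usp9x. Corrected for GC content and length they were -2.36, -2.39, -2.80, -2.53 and -2.34, beside -2.32 for Usp9x. Pcm1 was at rank 28 in this likeness to Usp9x (distance 0.478), the nearest of the substrate mRNAs, and Xiap followed at rank 856.

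Of the closest relatives of Usp9x, Usp9y had a count of 0 in all 4 libraries, which allows up to 0.192 CPM in a library for counting error. Usp34, a large deubiquitinase of the same family, was at 227 and 231 CPM in shCtrl and at 33.9 and 31.6 CPM in shUSP9X. The groups were well apart, and the log2 fold change of Usp34 was -2.80 (SE 0.05; adjusted p = 3.29e-24, edgeR), with -1.39 under both offsets. Its closest sites to the hairpin targets had 7 and 6 mismatches, and 20.7% and 2.45% of the genes tested had as few. Usp24 was at 160 and 159 CPM in shCtrl and at 106 and 106 CPM in shUSP9X. The log2 fold change of Usp24 was -0.59 (SE 0.05; adjusted p = 1.95e-11, edgeR), and it turned to 0.38 with the GC content and length offset. With the coding adenine offset it was not called (-0.092; adjusted p = 0.0714, edgeR).

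Lists of genes that work with the substrates were counted next. Each count is to be read against all genes tested, of which 33.6% were lower and 33.8% higher without an offset, 27.5% and 35.8% under the GC content offset, and 29% and 34.5% under the coding adenine offset, both of which include length. A longer list of 30 other proteins described as USP9X substrates had 25 genes tested, of which 16 were lower, 3 were higher and 6 were not called, with a median log2 fold change of -0.28. Under the GC content offset 12 were lower and 9 higher, with a median of -0.12, and under the coding adenine offset 13 were lower and 6 higher. Its lowest genes were Epas1, a hypoxia-inducible transcription factor subunit (-1.61; adjusted p = 7.26e-12, edgeR), and Ttk, a kinase of the spindle checkpoint (-1.27; adjusted p = 3.59e-12, edgeR). Epas1 had counts of 416 and 407 in shCtrl and 152 and 145 in shUSP9X, and it was at -1.65 and -1.70 under the GC content and the coding adenine offset, where Ttk was at -0.94 and -0.42. Its highest genes were the co-chaperone Bag3 (0.57) and the ligase Smurf1 (0.40). Sox2, Erg, Dcx and Aldh1a3 of this list had at most 3 counts in every library, and no fold change was given for them.

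The 10 NEDD4 family ligases and adaptors around Itch had 8 genes tested, with 5 lower, 1 higher and 2 not called and a median log2 fold change of -0.32. Under the GC content offset 2 were lower and 2 higher, with a median of -0.043, and under the coding adenine offset 3 were lower and 2 higher. Without the first shCtrl library 2 were higher. Wwp1 (-1.12) and Nedd4 (-0.57) were lowest and Smurf1 highest (0.40), and Wwp1, once corrected for GC content and length, was at 0.069. Nedd4 was at -0.24 under the GC content offset and at -0.14 under the coding adenine offset. Of 9 SCF subunits and FBXW7 targets, 2 were lower and 5 higher, and the median was 0.25. The 5 include Notch1, which passed the filter through the shUSP9X libraries alone, and 4 were higher with at least 10 counts asked of every library. Without Notch1 the median lies between the values of Jun (0.034) and Rbx1 (0.25). Under the GC content offset 3 were lower and 4 higher, with a median of 0.088, and under the coding adenine offset 2 were lower and 6 higher. Notch1 is part of these offset values as well. Cul1, the scaffold of the ligase, had a log2 fold change of -0.68, which became 0.18 with the coding adenine offset, and Mcl1, an anti-apoptotic target, one of -0.22. Ccne1, which encodes cyclin E, rose with a log2 fold change of 1.11 (adjusted p = 3.4e-09, edgeR), and Notch1, with 3 and 0 counts for shCtrl against 13 and 11 for shUSP9X, was at least 3.61-fold higher over a floor of 3 counts per library.

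Around Xiap, all 10 inhibitors of apoptosis, antagonists and caspases were tested, and 2 were lower, 6 higher and 2 not called, with a median log2 fold change of 0.17. Under the GC content offset 1 was lower and 6 were higher, and under the coding adenine offset 2 were lower and 4 higher. Birc2 (-0.91) and Birc6 (-0.74), both of the same inhibitor family as Xiap, were the lower ones, and Birc6 turned to 0.27 with the GC content and length offset. Xaf1, an antagonist of XIAP, had counts of 50 and 31 in shCtrl and 559 and 449 in shUSP9X. The groups of Xaf1 were far apart, with a log2 fold change of 3.49 (SE 0.16; adjusted p = 1.65e-16, edgeR). In the ASK1 cascade around Map3k5, 2 of 10 genes tested were lower, 6 higher and 2 not called, with a median of 0.18. Under the offsets 2 were lower, but not the same 2 genes as without an offset. They were Txn1 (-0.085 for GC content and -0.11 for coding adenine) and Map2k6 (-0.68 and -0.72). Without an offset Txn1 was called higher (0.097), and Map2k6 was not called. Under the offsets 5 (GC content) or 4 (coding adenine) were higher, and the 5 include Mapk8. Of the genes called without an offset, the JNK genes Mapk8 (-0.49) and Mapk9 (-0.29) were the lower ones. They were at 0.59 and -0.033 under the GC content and length offset and at -0.076 and 0.025 under the coding adenine offset. The upstream kinases Map3k6 (0.96) and Map2k3 (0.64) were the highest of those called without an offset.

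Of 14 AMPK-related kinases and LKB1 complex genes, 11 were tested, with 3 lower, 4 higher and 4 not called and a median log2 fold change of 0.048. DESeq2 called 2 of them higher and limma on unfiltered FPKM 1. Of all genes, DESeq2 called 3326 higher and that limma fit 3163, against 3864 for edgeR. Under the GC content offset 2 were lower and 5 higher, and under the coding adenine offset 1 was lower and 4 were higher. Without the first shCtrl or the first shUSP9X library 2 were higher, and without the second shUSP9X library 1 was lower. Cab39, a subunit of the LKB1 complex (-0.48), and Nuak2 (-0.26) were the lowest of those called, and Mark2 (0.41) and Sik2 (0.23) the highest. Cab39 was not called under the coding adenine offset (-0.10; adjusted p = 0.051, edgeR). The list around Ctnnb1, of destruction complex genes, partners and targets, had 17 of 19 genes tested, 8 lower, 3 higher and 6 not called, with a median of -0.10. Under the GC content offset 6 were lower and 5 higher, with a median of -0.012, and under the coding adenine offset 9 were lower and 3 higher. DESeq2 called 5 lower and 2 higher, and of all genes it called 3237 lower, against 3843 for edgeR. Without the first shUSP9X library 5 were lower. Apc, the scaffold that helps to mark β-catenin for destruction, had counts of 1694 and 1622 in shCtrl and 366 and 353 in shUSP9X. Its groups were well apart, with a log2 fold change of -2.35 (SE 0.07; adjusted p = 4.79e-20, edgeR) that became -0.52 with the coding adenine offset. Axin2, a target of WNT signaling, was low, with 17 and 27 against 10 and 11 counts (log2 fold change -1.20, SE 0.48; adjusted p = 0.0299, edgeR). Gsk3a (0.34) and Btrc (0.24) were the highest of those called, and Btrc was not called under the coding adenine offset (0.12; adjusted p = 0.286, edgeR).

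All 11 epsin and clathrin coat genes were tested, and 3 were lower, 7 higher and 1 not called, with a median log2 fold change of 0.21. Under the GC content offset 0 were lower and 6 higher, and under the coding adenine offset 2 were lower and 5 higher. Eps15 (-0.80) and the clathrin heavy chain Cltc (-0.63) were lowest, but stood at 0.051 and 0.063 once GC content and length were corrected for, and the light chain Cltb (0.78) and the adaptor subunit Ap2a1 (0.59) were highest. The 10 centriolar satellite proteins, chosen around Pcm1 and without it, had 8 genes lower and none higher, with 2 not called and a median of -0.83. Cep290, a protein of satellites and the ciliary base, had estimated counts of 485 and 402 in shCtrl and 12.5 and 12.8 in shUSP9X. Its log2 fold change was -5.22 (SE 0.19; adjusted p = 2.32e-18, edgeR), and it was -3.77 with the GC content offset and -0.58 with the coding adenine offset (adjusted p = 0.068), where adenine makes up 39.9% of its coding sequence. Cep350, a centrosomal protein, was at -2.03, and at -1.02 and -0.35 under the GC content and the coding adenine offset. The count for this list was 7 lower and 1 higher under the GC content and length offset and 5 lower and 2 higher under the coding adenine offset.

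**Figure D5:**
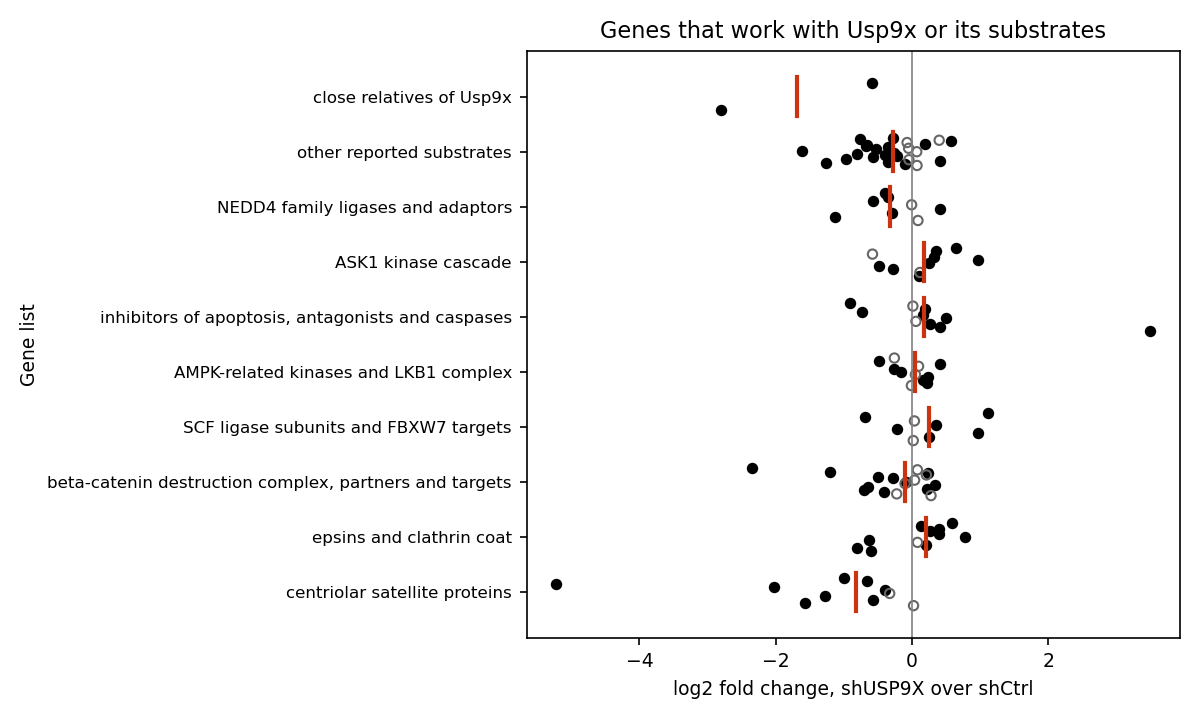
Log2 fold change of shUSP9X over shCtrl for the tested genes of 10 lists, filled where the adjusted p of edgeR was under 0.05, with the median of each list as a red bar. Genes with at most 3 counts in both libraries of a group are not drawn. Medians run from -1.70 for the 2 relatives of Usp9x and -0.83 for centriolar satellite proteins to 0.21 for epsins and clathrin coat. The median of 0.25 for SCF subunits and FBXW7 targets includes Notch1, which is not drawn, and is left out of this order.

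The labelled cell type was checked with markers. Of 8 markers listed for ovarian surface epithelium, Krt8, Krt18, Krt19, Wt1, Msln and Upk3b were abundant in all 4 libraries, with counts from 2572 (Upk3b) to 15535 (Krt19). Krt7 had 0 counts in both shCtrl libraries and 2 and 3 in shUSP9X. Pax8, which the study describes as a marker of high-grade serous ovarian cancer, had between 2 and 9 counts. Krt8 (0.92) and Krt18 (0.64) were higher and Wt1 (-0.52) and Msln (-0.47) lower on the log2 scale. Under the GC content offset these were 0.64, 0.33, -0.70 and -0.73 in the same order. Krt19 was called higher at 0.12 (adjusted p = 0.00274, edgeR) and turned to -0.17 under the GC content offset. Of the 6 markers tested, 2 were lower and 3 higher without an offset, 4 lower and 2 higher under the GC content offset, and 2 lower and 2 higher under the coding adenine offset. Of 8 markers of leukocytes, endothelium and erythroid cells, 2 passed the filter, and Cd3e and Cdh5 were at 0 in all 4 libraries. The list summed to 0.519 and 1.27 CPM in shCtrl and to 2.68 and 2.45 CPM in shUSP9X. Its most abundant gene in shUSP9X was Ptprc, a leukocyte marker, with 0 counts in both shCtrl libraries and 29 and 18 in shUSP9X. The part of these markers in the values of Usp9x and the substrate mRNAs was not tested.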

How the data were processed

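Per the labels, RNA was isolated with TRIzol, enriched with oligo(dT) beads and sequenced from 2 shCtrl and 2 shUSP9X libraries. The submitters' processing notes name fastp 0.18.0, Bowtie2 2.2.8, HISAT2, StringTie 1.3.1 and RSEM, and the study's methods give the build GRCm38. The authors deposited estimated counts per gene, not normalized, of which 6.395 to 6.69% per library were not whole, and FPKM, scaled for transcript length and depth. FPKM are not those counts over 1 fixed length.

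Counts were rounded, although the test had been planned for whole counts, filtered (filterByExpr), TMM-scaled and compared without covariates in edgeR 4.0.16 under R 4.3.3, by its quasi-likelihood test. P-values were adjusted over 11448 genes, and the common biological coefficient of variation was 0.0352. No permutation of 2 against 2 libraries can reach 0.05. The floor of a library was set at 3 counts, or 0.15 to 0.192 CPM, and floors cover counting error only, whereas the confidence intervals of edgeR include the spread between libraries. Between replicates, the chi-square of the counts was 3.41 per gene for shCtrl and 2.23 for shUSP9X, above sampling noise. Coordinates, GC content, coding adenine and lengths came from the longest coding transcript in GENCODE M21. Offsets were fitted per library as a loess surface with a span of 0.3. Alternatives were DESeq2 1.42.0, other scalings and filters, limma 3.58.1 on log2(FPKM + 1) and log2(FPKM + 0.1), the offsets, a replicate block and each library left out. The procedures were tested on simulated data.

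Members and lists were chosen with earlier results of these data known. Besides the 10 genes and the relatives of Usp9x, genes were named as the 2 lowest and 2 highest calls per list without overlap of the groups, the markers at the floor, and the 5 genes nearest to Usp9x. A gene that this rule names is not reported here. Genes at the floor, Txn1, Map2k6, Cd3e, Cdh5, Pax8 and further markers were named after their values were seen.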

Additional observations from a re-analysis of the deposited data

How the results depend on the processing

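Usp9x was lower under all 17 alternatives, with a log2 fold change between -3.91 and -2.32, and with each library left out it stayed between -3.89 and -3.80. With a replicate block its log2 fold change was -3.85, and the block changed no call of the 10 genes. The replicate numbers did not pair the libraries (correlation of deviations -0.026). Pcm1 ranged from -3.42 to -0.84, Fbxw7 from -0.66 to -0.24 and Nuak1 from 0.52 to 0.76. Itch turned to 0.19 with the GC content and length offset, with and without the block, and to 0.18 with the coding adenine offset, and Xiap to 0.38 with the GC content and length offset, with and without the block. Ctnnb1 turned to -0.042 with the GC content and length offset, with and without the block, and to -0.0453 with the coding adenine offset. Epn1 turned to -0.0454 with the GC content and length offset, to -0.0455 with the block added, to -0.0115 with the coding adenine offset, to -0.0192 on log2(FPKM + 0.1) and to -0.019 on log2(FPKM + 1) with and without the filter, and with each library left out it lay between -0.0223, without shCtrl replicate 1, and 0.15, without shCtrl replicate 2. Map3k5 turned to -0.0083 with library size only, to -0.0426 on log2(FPKM + 0.1), to -0.0342 on log2(FPKM + 1) with and without the filter, and to -0.11 without shCtrl replicate 2. Of the 10 genes, 3 were lower and 3 higher with the GC content and length offset, with and without the block. With upper-quartile scaling, which adds Ctnnb1, and with the coding adenine offset 2 of the 10 genes were higher. Of all genes, 4144 were higher with upper-quartile scaling, against 3864 with TMM scaling. With each library left out, 1 to 3 were higher, with 3 without shCtrl replicate 2, and 5 were lower each time. At the cutoff of the study's methods 2 were lower with the GC content and length offset, with and without the block, and 0 were higher on each FPKM scale. The share of all genes at this cutoff was not counted for these fits.

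The median of the 9 substrate mRNAs lies next to 0 and moved on both sides of it. It was 0.0783 with the GC content and length offset and 0.0777 with the block added, -0.0115 with the coding adenine offset, -0.0083 with library size only, 0.053 with upper-quartile scaling, -0.0426 on log2(FPKM + 0.1), -0.0342 on log2(FPKM + 1) with and without the filter, and -0.11 to 0.0208 with each library left out. The offsets by construction take out what follows their feature, and the cause of the other shifts was not tested. Map3k5 and Fbxw7 had the widest intervals. With 2 libraries per group, small differences such as those of Mark4, Ctnnb1 and Epn1 rest on few libraries. The test of edgeR takes part of its estimate of their spread from other genes. They were not called by edgeR with TMM scaling and all 4 libraries.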

Other observations

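Usp9x and Xiap lie on the X chromosome, at chrX:13071498-13173328 and chrX:42059679-42109656 (GRCm38). The 360 genes tested on that chromosome had a median log2 fold change of -0.25, and edgeR's test called 48.9% of them lower and 21.7% higher, against 33.6% and 33.8% of all genes tested.

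Coding adenine and coding length went with the fold changes together. The 486 genes in the top quintile of coding adenine and the bottom quintile of coding length had a median log2 fold change of -0.11, and 42.2% of them were lower. The 300 genes in the bottom quintile of coding adenine and the top quintile of coding length had a median of -0.01, and 29% were lower. Where both were in the top quintile, as in Usp9x, Itch and Pcm1, the median was -1.24. No test was made of these classes, since genes of a library are not independent of each other.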
